A study of Mus musculus with 9 samples.

Results

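The glucocorticoid receptor gene Nr3c1 and 9 genes known to respond to glucocorticoids in skeletal muscle, Fkbp5, Tsc22d3, Zbtb16, Sgk1, Hif3a, Cebpb, Cebpd, Errfi1 and Glul, were followed in the tibialis anterior (TA), the shin muscle of the mouse, which is built mostly of fast fibres. They were chosen by gene symbol, and all 10 were found among the 56805 genes of the deposited table. The libraries came from the left TA muscles of 13-month-old male mice of the genotypes Svil-Mut, Svil-KO and WT, with 3 mice per genotype and 1 library per mouse. Svil encodes supervillin, which links actin and myosin to the cell membrane, and the series asks how mice with altered supervillin handle insulin and glucose and how their muscles work. The labels name no treatment, no hormone measurement and no time of day of collection, and they do not say which part of Svil is altered in either line or in which cells.

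Glucocorticoids cross the cell membrane and bind a receptor held in the cytoplasm by heat shock proteins and the immunophilins Fkbp4 and Fkbp5. The loaded receptor enters the nucleus, binds DNA and raises some genes while lowering others, many of them inflammatory. In skeletal muscle glucocorticoids are known for reducing glucose uptake, for promoting protein breakdown and for inducing glutamine synthetase. Fkbp5, Tsc22d3 and Zbtb16 are among the most widely used readouts of receptor activity, whereas Sgk1, Errfi1, Cebpb and Cebpd also respond to growth factors, stress, cyclic AMP or cytokines.

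The promoters of Errfi1 and Sgk1 are shown because these were the members with the smallest p-values between Svil-Mut and WT, and that of Fkbp5 is shown as a widely used receptor target whose libraries overlapped between all genotypes. Each sequence runs from 250 bases before to 50 bases after 1 transcription start in RefSeq, build GRCm38.p6, on the gene's own strand. Capitals mark the motif matches found. Only 1 start was used per gene, although the annotation lists 3 transcripts for Errfi1, 13 for Sgk1 and 15 for Fkbp5. Promoters at other starts were not searched.
Errfi1, chr4:150853546-150853845, plus strand: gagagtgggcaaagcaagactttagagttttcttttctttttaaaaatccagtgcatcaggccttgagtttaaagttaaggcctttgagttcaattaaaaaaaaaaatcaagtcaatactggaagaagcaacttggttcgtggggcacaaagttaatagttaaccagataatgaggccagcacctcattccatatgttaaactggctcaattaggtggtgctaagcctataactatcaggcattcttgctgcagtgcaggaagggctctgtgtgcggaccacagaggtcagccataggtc
Sgk1, chr10:21881934-21882233, plus strand: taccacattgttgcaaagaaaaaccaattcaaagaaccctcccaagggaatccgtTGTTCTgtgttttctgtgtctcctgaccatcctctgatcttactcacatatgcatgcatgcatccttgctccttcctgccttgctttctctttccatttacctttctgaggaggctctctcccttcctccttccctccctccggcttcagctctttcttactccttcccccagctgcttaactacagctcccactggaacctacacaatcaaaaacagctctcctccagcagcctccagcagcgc
Fkbp5, chr17:28486100-28486399, minus strand: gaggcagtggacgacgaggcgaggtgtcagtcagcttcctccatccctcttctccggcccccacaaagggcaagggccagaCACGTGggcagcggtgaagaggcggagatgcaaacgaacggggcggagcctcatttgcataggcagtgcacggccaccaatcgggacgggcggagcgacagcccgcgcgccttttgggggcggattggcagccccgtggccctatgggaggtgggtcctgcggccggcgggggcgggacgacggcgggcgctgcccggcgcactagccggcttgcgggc
The capitals in Sgk1 are the receptor hexamer TGTTCT, 195 bases before the start, and those in Fkbp5 are the E-box CACGTG, 169 bases before the start.

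RefSeq promoters, 1 per gene, were at hand for 7 members, the 3 printed and those of Tsc22d3, Hif3a, Cebpb and Glul. They were searched on both strands for 6 motifs, and the share of all 27025 mouse promoters of this length that hold each motif was counted. The hexamer TGTTCT was in 1 of the 7 (Sgk1) and in 19% of all promoters. The longer palindromic core of the receptor site, GNACANNNTGTNC, was in none of the 7 and in 0.463% of all promoters. The cyclic AMP response element core TGACG was in 1 of the 7 (Cebpb, with 3 matches, 180, 53 and 7 bases before the start) and in 21% of all promoters, and the E-box was in 1 of the 7 (Fkbp5) and in 7.24% of all promoters. The AP-1 site TGANTCA, found in 7.93% of all promoters, and the C/EBP core TTGCNNAA, found in 10.8%, were in none of the 7. The hexamer can form 1 end of the palindromic core, and a match in such a window describes letters only, since many receptor sites lie far from promoters.

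The values are normalised read counts, the reads of a gene divided by a size factor of its library, recovered from 36234428 to 48762188 reads per library with 19282 to 19988 genes detected. Svil itself averaged (± SD over 3 mice) 4379 ± 381 in Svil-Mut, 6934 ± 407 in Svil-KO and 8822 ± 497 in WT, with no overlap between the genotypes. It was called lower in Svil-Mut than in WT (log2 fold change -1.01, limma adjusted p 0.000941) and not called in Svil-KO (-0.35, limma adjusted p 0.997). The tissue label matched its markers, since Myh4, the myosin of the fastest fibres, reached 1777800 to 2610190 in every library. Some libraries stood apart in other markers. Markers of slow fibres averaged 2.31 log2 units above the WT mean in Svil-KO replicate 1, against -0.31 and -0.24 in the other Svil-KO libraries, and they averaged -2.50 in Svil-Mut replicate 2. In Svil-Mut replicate 4, macrophage and leukocyte markers averaged 1.78 and red blood cell markers 3.26 log2 units above the WT mean. Adipocyte markers averaged -3.74, -3.65 and -0.36 in Svil-Mut, -0.32, -2.12 and -0.85 in Svil-KO, and -0.38, 0.79 and -0.40 in WT on the same scale, with Cidec and Lep at 0 in Svil-Mut replicates 1 and 2. Of these 5 markers, 4 were lower in Svil-Mut than in WT at an unadjusted limma p under 0.05, beside 10% of all genes past that p. None was called by limma, and all 5 overlapped between these genotypes. They summed to 6749 to 8900 in Svil-Mut, 8072 to 9366 in Svil-KO and 8580 to 11052 in WT. Nearly all of each sum was Fabp4, at 6737 to 8689 in Svil-Mut, 8024 to 9162 in Svil-KO and 8144 to 10822 in WT. The sums therefore say little about the other adipocyte markers. The part of the 5 markers in the members' values was not tested. In bulk muscle, fewer cells of a type and less RNA per cell cannot be told apart.

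Levels were set against each other per kilobase of annotated exon. In WT muscle Tsc22d3 had the highest level of the 10 genes, 3924 ± 566 normalised counts per kilobase (SD, n = 3), followed by Sgk1 at 3446 ± 222 and Cebpb at 3168 ± 360. Their SDs overlapped between neighbours. Glul followed at 1048 ± 250 per kilobase and then Cebpd at 543 ± 220, each below the SD range of the gene before it. Nr3c1 at 460 ± 52.5, Zbtb16 at 407 ± 18.8 and Errfi1 at 369 ± 22.0 lay close together, with SDs that overlapped between neighbours, and Fkbp5 stood below them at 263 ± 70.2 per kilobase. Hif3a, at 1.62 per kilobase, was near the detection limit. In Svil-Mut muscle Errfi1 reached 1083 ± 428 per kilobase (SD, n = 3), so it stood next to the level that Glul had in WT, and in Svil-KO muscle it was 472 ± 238.

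Nr3c1, the receptor gene (ENSMUSG00000024431.15, chromosome 18, 39410545 to 39519421, minus strand, GRCm38), which lies on the same chromosome as Svil, had normalised counts of 3382, 3686 and 3459 in Svil-Mut, 4032, 3953 and 3447 in Svil-KO, and 3958, 3504 and 3153 in WT. The 3 genotypes overlapped, with means of 3509 ± 158 in Svil-Mut, 3811 ± 317 in Svil-KO and 3538 ± 403 for WT (SD, n = 3 each). Against WT, the log2 fold change in Svil-Mut was -0.0067, with a 95% interval of -0.23 to 0.22, and that in Svil-KO was 0.11.

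Of the 22 genes listed for the receptor's chaperones, coregulators and hormone activation, 22 were tested and none passed the adjusted threshold of 0.05 in any of the comparisons. At an unadjusted limma p under 0.05, 3 of the 22 were higher and 0 lower in Svil-Mut than in WT, beside 10% of all genes past that p in either direction, with a median log2 fold change of 0.06 over the list against -0.0046 over all genes tested. These were Dnaja1, a co-chaperone of Hsp70, at 2039 ± 1026 in Svil-Mut and 1137 ± 98.9 in WT, Ncoa2, a coactivator of the receptor, at 675 ± 75.2 in Svil-Mut and 505 ± 60.1 in WT, and the Hsp70-family chaperone Hspa8 at 26517 ± 4752 in Svil-Mut and 21636 ± 1871 in WT (SD, n = 3 each). The spread of Dnaja1 in Svil-Mut was wide, as was that of Hsp90aa1, the stress-inducible Hsp90 that holds the receptor in its binding state, at 1804 ± 1208 in Svil-Mut and 977 ± 80.9 in WT. Between Svil-KO and WT the counts at an unadjusted p under 0.05 were 0 higher and 1 lower, beside 4.11% of all genes, the lower one being the acetyltransferase Crebbp, at 1692 ± 106 in Svil-KO and 2013 ± 155 in WT. In Svil-Mut against Svil-KO they were 5 higher and 1 lower, beside 10.2% of all genes. The lower one was Nr3c2, the mineralocorticoid receptor, which also binds corticosterone, at 273 ± 89.7 in Svil-Mut and 416 ± 15.2 in Svil-KO (log2 fold change -0.66, limma adjusted p 0.426).

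Fkbp5 (ENSMUSG00000024222.17, chromosome 17, 28399094 to 28517527, minus strand) encodes the immunophilin that lowers the receptor's affinity for hormone and closes a feedback loop. Its normalised counts were 1602, 2036 and 2384 in Svil-Mut, 1468, 2973 and 3877 in Svil-KO, and 2110, 2095 and 3253 in WT. Svil-KO held both the lowest and the highest library, and all genotypes overlapped. Relative to WT, Fkbp5 had a log2 fold change of -0.30 in Svil-Mut, with a 95% interval of -0.98 to 0.39 (limma adjusted p 0.815), and of 0.08 in Svil-KO. Within Svil-KO alone the highest mouse had more than 2-fold the count of the lowest. Without Svil-KO replicate 1, whose slow-fibre markers stood apart, the value for Svil-KO against WT was 0.48. That for Svil-Mut against WT was -0.09 without WT replicate 4 and -0.14 without Svil-Mut replicate 1.

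Zbtb16 (ENSMUSG00000066687.5, chromosome 9, 48654297 to 48836222, minus strand), a zinc finger transcription factor strongly induced by glucocorticoids in many cell types, had normalised counts of 1864, 1727 and 1843 in Svil-Mut, 1338, 1852 and 2321 in Svil-KO, and 2122, 2070 and 2262 in WT. Each Svil-Mut library was below each WT library, while Svil-KO spanned both. The difference between Svil-Mut and WT was small, a log2 fold change of -0.25 with a 95% interval of -0.61 to 0.11 (limma adjusted p 0.660). As with Fkbp5, the lowest of the 9 libraries was Svil-KO replicate 1.

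Tsc22d3 (ENSMUSG00000031431.13, chromosome X, 140539528 to 140600659, minus strand) encodes GILZ, the leucine zipper protein that carries part of the anti-inflammatory action of glucocorticoids. Its normalised counts were 16932, 27727 and 19312 in Svil-Mut, 18243, 16546 and 16148 in Svil-KO, and 14501, 19405 and 17193 in WT. The highest library was Svil-Mut replicate 2, and the other libraries of the 3 genotypes overlapped. Tsc22d3 had a log2 fold change of 0.30 in Svil-Mut against WT, with a 95% interval of -0.06 to 0.66 (limma adjusted p 0.581), and of 0.0036 in Svil-KO against WT. Without Svil-Mut replicate 2 the first of these was 0.10, and without WT replicate 1 it was 0.19.

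Hif3a (ENSMUSG00000004328.15, chromosome 7, 17031507 to 17062427, minus strand), a member of the hypoxia-inducible factor family that glucocorticoids induce in several tissues, was at the edge of detection. It had 0, 46 and 0 reads in Svil-Mut, 8, 1 and 46 in Svil-KO, and 2, 16 and 14 in WT. A count of 0 allows up to 3 reads, for counting error alone. High and low libraries occurred in both altered genotypes, and no change in Hif3a was detectable at this depth.

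**Figure D1:**
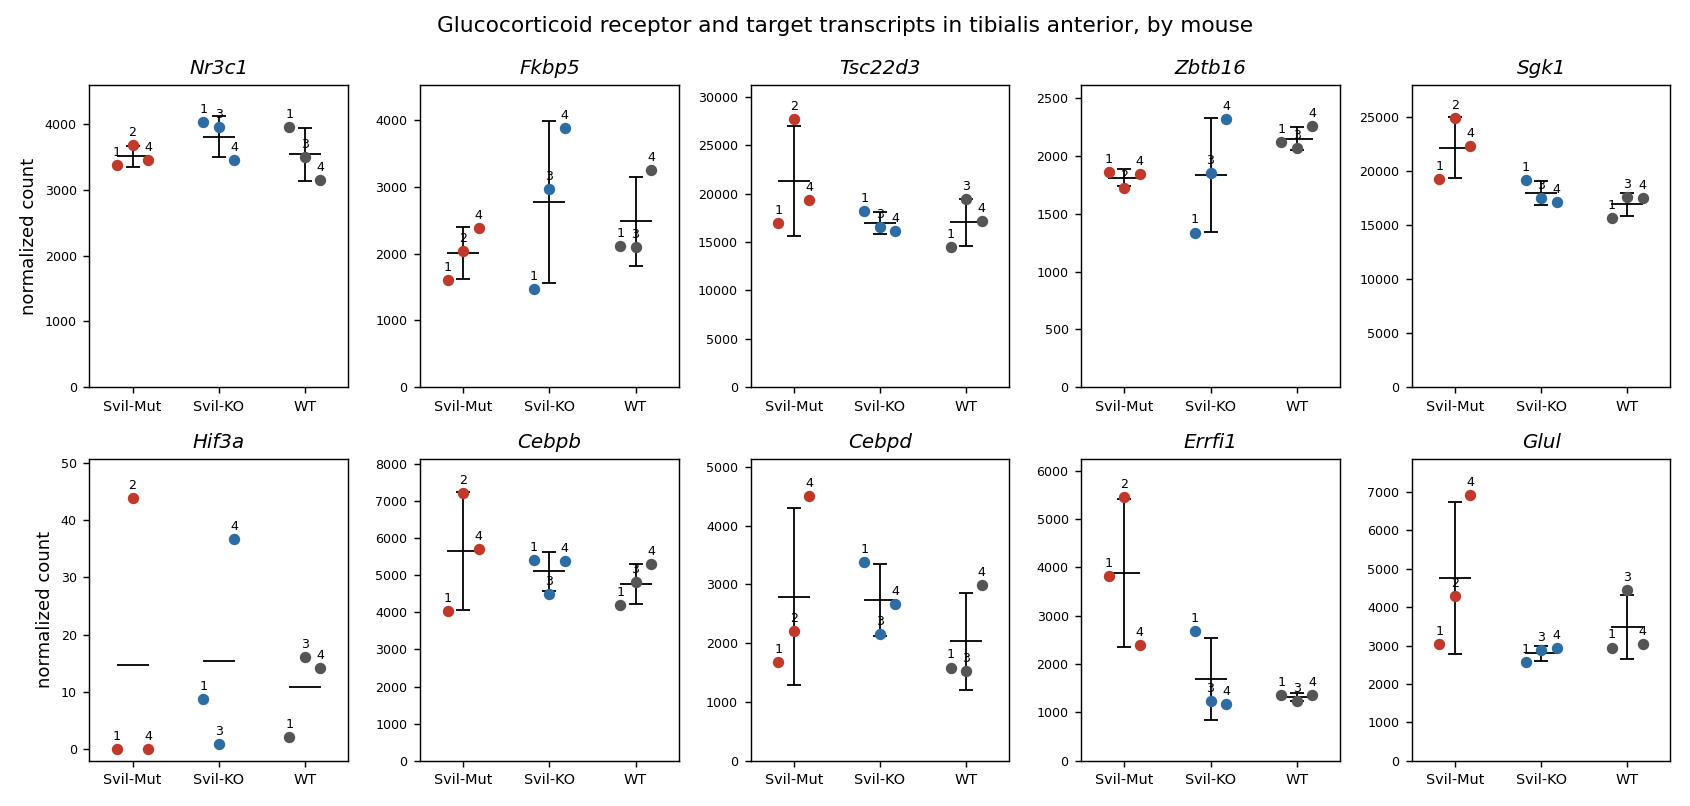
Normalised read counts of the 10 genes in each library, with Svil-Mut, Svil-KO and WT from left to right. Each gene has its own panel and linear axis, which starts at 0, or just below 0 for Hif3a. Points are mice and bars are the mean with its SD (n = 3), except for Hif3a, where the bar is the mean alone. Errfi1 and Sgk1 show every Svil-Mut library above every WT library, and Fkbp5 shows its widest spread in Svil-KO.

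Sgk1 (ENSMUSG00000019970.15, chromosome 10, 21882184 to 21999903, plus strand) encodes serum- and glucocorticoid-regulated kinase 1, which acts downstream of PI3K on ion channels and on FoxO factors. Its normalised counts were 19252, 24853 and 22281 in Svil-Mut, 19181, 17489 and 17117 in Svil-KO, and 15641, 17563 and 17485 in WT. All 3 Svil-Mut libraries were above all 6 others, the lowest of them by little. The mean was 1.31-fold higher in Svil-Mut than in WT, 22129 ± 2804 against 16896 ± 1088 (SD, n = 3 each). The log2 fold change was 0.38 with a 95% interval of 0.17 to 0.60, an unadjusted limma p of 0.00235 and a limma adjusted p of 0.283. In Svil-Mut against Svil-KO it was 0.30, with a 95% interval of 0.08 to 0.51 (limma adjusted p 0.355), and in Svil-KO against WT it was 0.09 (limma adjusted p 0.997).

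Errfi1 (ENSMUSG00000028967.10, chromosome 4, 150853919 to 150868892, plus strand) encodes MIG6, a feedback inhibitor of the EGF receptor family that is induced by growth factors, stress and glucocorticoids. Its normalised counts were 3811, 5446 and 2384 in Svil-Mut, 2674, 1228 and 1172 in Svil-KO, and 1367, 1231 and 1368 in WT. Every Svil-Mut library was above every WT library, and Svil-KO replicate 1 lay above the lowest Svil-Mut library. The mean was 2.93-fold higher in Svil-Mut than in WT, 3880 ± 1532 against 1322 ± 78.7 (SD, n = 3 each). The log2 fold change was 1.47 with a 95% interval of 0.75 to 2.20, an unadjusted limma p of 0.000941 and a limma adjusted p of 0.228, which placed Errfi1 at rank 62 of the 15279 genes tested. In Svil-Mut against Svil-KO it was 1.23, with a 95% interval of 0.51 to 1.95 (limma adjusted p 0.272).

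Errfi1 and Sgk1 were thus not called by limma at an adjusted p of 0.05. DESeq2 on the recovered reads did call both in Svil-Mut against WT, Errfi1 with a log2 fold change of 1.55 (DESeq2 adjusted p 0.0398) and Sgk1 with 0.39 (DESeq2 adjusted p 0.0296), whereas edgeR's quasi-likelihood test called neither (adjusted p 0.251 and 0.305 in that order of genes). The DESeq2 calls depended on single mice. Neither gene was called by DESeq2 without Svil-Mut replicate 2, where the log2 fold changes were 1.23 for Errfi1 (adjusted p 0.248) and 0.30 for Sgk1 (adjusted p 0.172), nor without any one of the 3 WT libraries. Without Svil-Mut replicate 1 only Sgk1 was called by DESeq2, and without Svil-Mut replicate 4 only Errfi1. Leaving out single libraries moved the p in both directions. Over the 9 omissions the DESeq2 adjusted p ran from 1.2e-08 to 0.248 for Errfi1 and from 0.000406 to 0.191 for Sgk1.

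Errfi1 was highest in the 2 libraries with the highest level of the immediate early genes, the transcription factors and regulators that cells induce within minutes of a stimulus. Over 24 such genes the mean level was 2.19, 2.57 and 1.78 log2 units above the WT mean in Svil-Mut, 0.85, -0.02 and 0.02 in Svil-KO, and 0.09, -0.01 and -0.09 in WT. The order of the Svil-Mut libraries was the same as for Errfi1, and Svil-KO replicate 1, which had the highest Errfi1 of its genotype, also had the highest immediate early level of its genotype. The order was not shared everywhere: Errfi1 in the remaining Svil-KO libraries and in WT did not follow the small differences in immediate early level, and Sgk1 was lowest in Svil-Mut replicate 1, which was not the Svil-Mut library with the lowest immediate early level. Of the 24 genes, 3 rose in Svil-Mut against WT at a limma adjusted p under 0.05, namely Fos, Dusp1 and Atf3, beside 0.0393% of all genes. At an unadjusted p under 0.05, 20 were higher and 0 lower, beside 10% of all genes. Among the 24, Fosb passed the filter on low values through Svil-Mut (95.7, 184 and 42.6) and Svil-KO replicate 4 (13.6), with 0 in every WT library. Its difference from WT is therefore not independent of the filter, and it is part of the mean level given above. Fos, a subunit of AP-1, was 2630 ± 183 in Svil-Mut and 222 ± 60.2 in WT (log2 fold change 3.59, limma adjusted p 3.4e-05; SD, n = 3 each). Between Svil-Mut and Svil-KO, 4 of the 24 rose at a limma adjusted p under 0.05, beside 0.0458% of all genes. They were Fos, Atf3, Dusp1 and Klf4. Klf4, a zinc finger transcription factor, was at 835 ± 236 in Svil-Mut and 176 ± 71.4 in Svil-KO (SD, n = 3 each). Its log2 fold change was 2.28 (limma adjusted p 0.0261). The part of the immediate early genes in the difference in Errfi1 and Sgk1 was not tested.

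**Figure D2:**
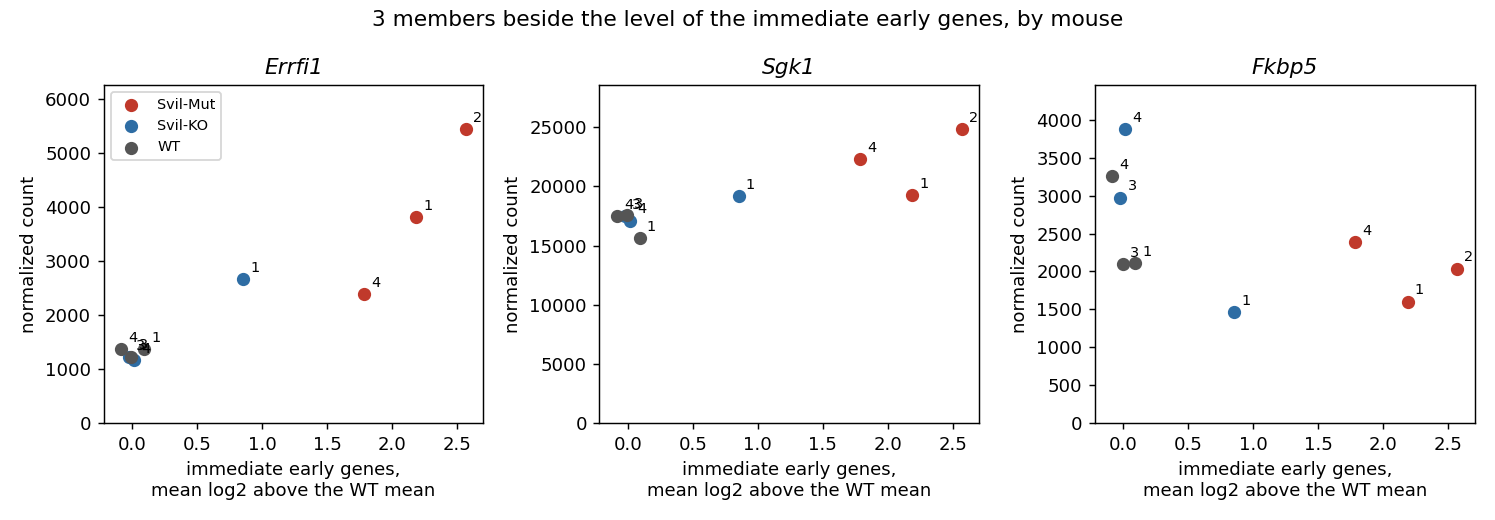
Normalised read counts of Errfi1, Sgk1 and Fkbp5 in each library against the mean log2 level of 24 immediate early genes above the WT mean. Points are libraries, coloured by genotype, and the digit beside a point is the replicate number. Errfi1 is highest, at 5446, in Svil-Mut replicate 2, the library with the highest immediate early level, whereas Fkbp5 is highest in Svil-KO replicate 4, which lies near 0 on that axis.

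Cebpb and Cebpd encode C/EBP beta and C/EBP delta, bZIP transcription factors that glucocorticoids and inflammatory cytokines induce in muscle. Cebpb (ENSMUSG00000056501.3, chromosome 2, 167688915 to 167690418, plus strand) had normalised counts of 4032, 7200 and 5708 in Svil-Mut, 5416, 4499 and 5386 in Svil-KO, and 4205, 4807 and 5284 in WT. Svil-Mut held both the lowest and the highest library. Its log2 fold change in Svil-Mut against WT was 0.21, with a 95% interval of -0.19 to 0.61 (limma adjusted p 0.753). It was 0.016 without Svil-Mut replicate 2, 0.12 without WT replicate 1 and 0.43 without Svil-Mut replicate 1. The annotated exons of Cebpb share 312 bases with Tmem189 on the opposite strand, and the library kit does not mark strand, so reads of that stretch cannot be assigned to 1 gene.

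Cebpd (ENSMUSG00000071637.5, chromosome 16, 15887286 to 15891031, plus strand) had normalised counts of 1676, 2201 and 4506 in Svil-Mut, 3375, 2149 and 2666 in Svil-KO, and 1587, 1527 and 2986 in WT. All genotypes overlapped, and the highest library was Svil-Mut replicate 4. For Cebpd the log2 fold change in Svil-Mut against WT was 0.40, with a 95% interval of -0.37 to 1.17 (limma adjusted p 0.766), and -0.01 without that library. It was 0.26 without WT replicate 1, 0.23 without WT replicate 3, 0.71 without WT replicate 4 and 0.70 without Svil-Mut replicate 1. Between Svil-KO and WT it was 0.47 (limma adjusted p 0.997), with 0.31 without Svil-KO replicate 1, 0.30 without WT replicate 3 and 0.79 without WT replicate 4. Cebpd shares 562 exon bases with Spidr on the opposite strand, which stood at 42.0 to 119 in Svil-Mut, 20.4 to 60.5 in Svil-KO and 1.09 to 75.9 in WT, far below Cebpd.

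Glul (ENSMUSG00000026473.15, chromosome 1, 153899944 to 153909723, plus strand) encodes glutamine synthetase, which makes the glutamine that muscle exports and is a long-known glucocorticoid target in muscle. Its normalised counts were 3046, 4292 and 6936 in Svil-Mut, 2570, 2889 and 2941 in Svil-KO, and 2952, 4439 and 3056 in WT. The Svil-KO libraries were below all others, the nearest WT library by little, and Svil-Mut replicate 4 was above all others. The log2 fold change was 0.68 in Svil-Mut against Svil-KO, with a 95% interval of 0.13 to 1.24 (limma adjusted p 0.412), and -0.29 in Svil-KO against WT (limma adjusted p 0.997). Against WT it was 0.39 in Svil-Mut (limma adjusted p 0.652), and leaving out Svil-Mut replicate 4 gave 0.08, while leaving out replicate 1 of that genotype gave 0.67. Without Svil-Mut replicate 4 the difference from Svil-KO was 0.37, and without WT replicate 3 that between Svil-KO and WT was -0.10.

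Svil-Mut replicate 4, the highest library for both Cebpd and Glul, was also the one with the most red blood cell and leukocyte transcripts. The 5 red blood cell markers summed to 6545 to 49200 normalised counts in Svil-Mut, 2627 to 6208 in Svil-KO and 4413 to 8134 in WT, with none at 0, and 5 of the 5 were higher in Svil-Mut than in WT at an unadjusted p under 0.05, beside 10% of all genes. Limma called none of the 5 there (smallest adjusted p 0.349), and all 5 overlapped between Svil-Mut and WT. The 8 macrophage and leukocyte markers summed to 355 to 1160 in Svil-Mut, 478 to 844 in Svil-KO and 465 to 633 in WT, and the macrophage marker Adgre1 was at 0 in Svil-Mut replicate 2. Their part in the Cebpd and Glul values was not tested. Glul shares 116 exon bases with Teddm2 on the opposite strand, which stood at 67.2 to 131 in Svil-Mut, 47.9 to 85.3 in Svil-KO and 57.1 to 82.0 in WT, and it contains 93 bases of Mir8114 on its own strand.

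**Figure D3:**
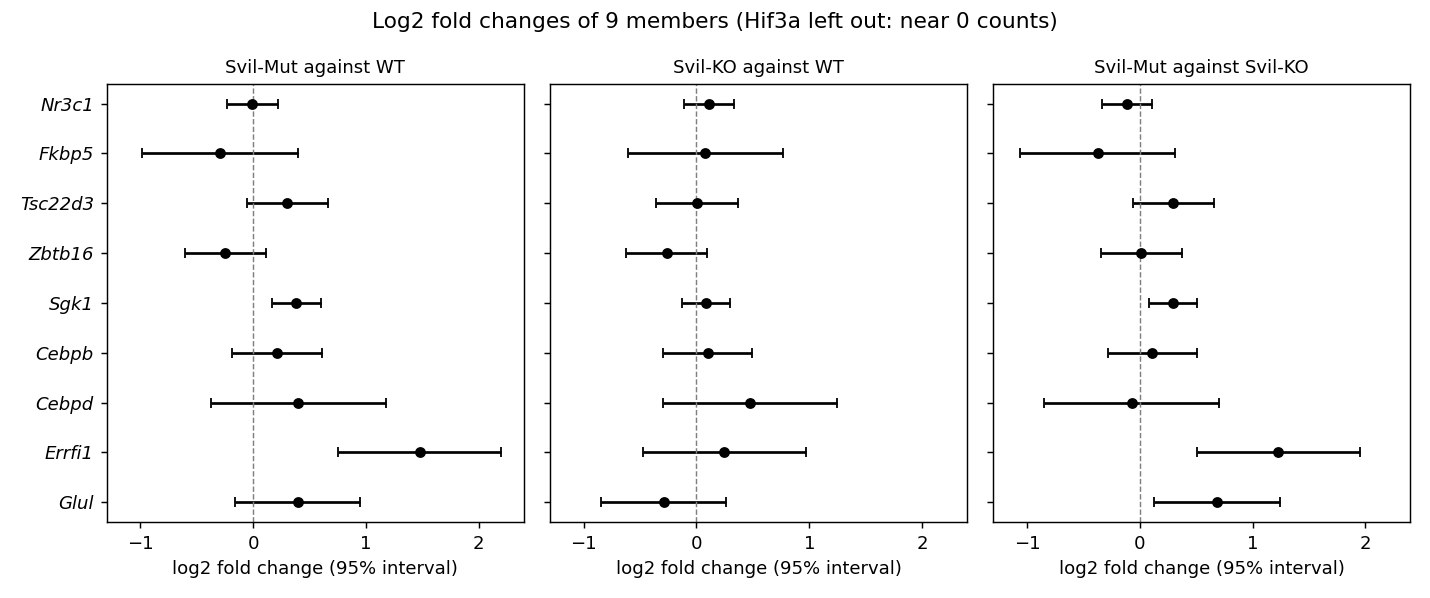
Log2 fold changes of 9 members with 95% intervals from limma in Svil-Mut against WT, Svil-KO against WT and Svil-Mut against Svil-KO; Hif3a is left out because of its low counts. The interval of Errfi1, 0.75 to 2.20, lies farthest from 0 in Svil-Mut against WT.

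Counted over the comparisons, none of the 10 genes was called by limma at an adjusted p under 0.05. In Svil-Mut against WT, 0 of 10 were called, beside 6 of all genes tested (0.0393%); 2 had an unadjusted p under 0.05, both higher, beside 10% of all genes, and 3 (Errfi1, Sgk1 and Zbtb16) had no overlap between the genotypes, beside 13.9%. In Svil-KO against WT, 0 of 10 were called, beside 0 of all genes (0%), 0 had an unadjusted p under 0.05, beside 4.11%, and 1 (Glul) had no overlap, beside 10.7%. In Svil-Mut against Svil-KO, 0 of 10 were called, beside 7 of all genes (0.0458%), 3 had an unadjusted p under 0.05, all higher, beside 10.2%, and 2 (Sgk1 and Glul) had no overlap, beside 15.2%. With DESeq2 the counts were 2 of 10 in Svil-Mut against WT, beside 1.18% of the genes with an adjusted p, 0 in Svil-KO against WT, beside 0.0262%, and 0 in Svil-Mut against Svil-KO, beside 1.47%. The median log2 fold change of the 10 genes was 0.26 in Svil-Mut against WT, 0.08 in Svil-KO against WT and 0.06 in Svil-Mut against Svil-KO, beside -0.0046, 0.0031 and -0.0089 over all genes. All 10 passed the filter on low values. The comparisons share libraries, so their counts are not independent.

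A further 25 genes known to be induced by glucocorticoids in muscle or other tissues were examined beside the members. Between Svil-Mut and WT, 1 of 25 rose at a limma adjusted p under 0.05 and 0 fell, beside 0.0393% of all genes called. At an unadjusted p under 0.05, 8 were higher and 1 lower, beside 10% of all genes, and the list's median log2 fold change was 0.19. The gene that rose was Dusp1, a phosphatase that inactivates MAP kinases and is also an immediate early gene, with normalised counts of 7146, 8845 and 8267 in Svil-Mut, 4404, 4572 and 4170 in Svil-KO, and 4406, 4502 and 3983 in WT. All Svil-Mut libraries were above all others, with a log2 fold change of 0.91 against WT (limma adjusted p 0.00428) and 0.88 against Svil-KO (limma adjusted p 0.0047).

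Other listed genes did not pass. Pdk4, the kinase that shuts down pyruvate dehydrogenase in fasting and under glucocorticoids, had normalised counts of 5976, 9859 and 11614 in Svil-Mut, 17239, 19050 and 52098 in Svil-KO, and 39433, 17331 and 52686 in WT. It was thus lower in every Svil-Mut library than in every other library, against the direction of Dusp1, with a log2 fold change of -1.91 against WT (limma adjusted p 0.279). Cdkn1a, a cell cycle inhibitor, was 950 ± 379 in Svil-Mut and 433 ± 72.8 in WT (limma adjusted p 0.230; SD, n = 3 each). The metallothionein Mt1 had normalised counts of 1767, 13303 and 2707 in Svil-Mut, 1330, 899 and 1183 in Svil-KO, and 955, 806 and 1322 in WT, with Svil-Mut replicate 2 far above the rest. Between Svil-KO and WT, 0 of the 25 were called and 1 was higher at an unadjusted p under 0.05, beside 4.11% of all genes, the growth inhibitor Mstn, at 2716 ± 332 in Svil-KO and 2148 ± 365 in WT. The list's median log2 fold change there was 0.04. In Svil-Mut against Svil-KO, 1 of 25 rose, again Dusp1, beside 0.0458% of all genes called. At an unadjusted p under 0.05, 5 were higher and 2 lower, beside 10.2% of all genes.

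**Figure D4:**
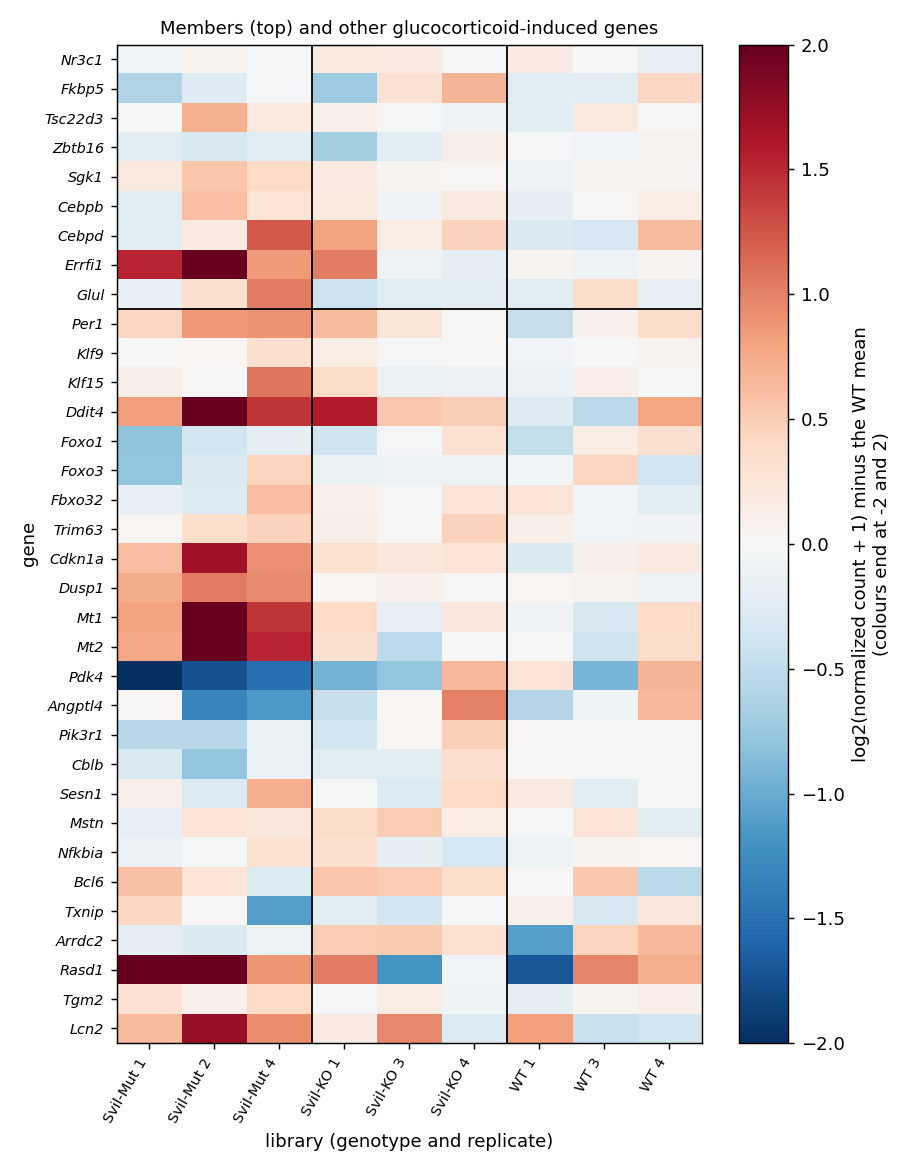
Log2 normalised count above the WT mean of 9 members (upper rows) and 25 other glucocorticoid-induced genes (lower rows) in each library, with Svil-Mut, Svil-KO and WT from left to right. Pdk4 is below the WT mean in all Svil-Mut libraries while Errfi1 and Dusp1 are above it.

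Of 14 genes that glucocorticoids repress in inflammation, 8 passed the filter, several of them at low levels, and the rest were too low to test. None was called in any comparison. Between Svil-Mut and WT, 2 were higher at an unadjusted p under 0.05 and 0 lower, beside 10% of all genes, with a median log2 fold change of 1.17 over the 8. Because a gene of such low level passes the filter through the genotype in which it is high, this count and this median describe those 8 genes only. The adhesion molecule Icam1 was 230 ± 90.9 in Svil-Mut and 105 ± 35.1 in WT (log2 fold change 1.11, limma adjusted p 0.365), and the chemokine Ccl7 was 27.7 ± 8.0 in Svil-Mut and 0.73 ± 1.3 in WT (SD, n = 3 each). Ccl7 passed the filter through Svil-Mut (19.3, 35.3 and 28.4) and Svil-KO replicate 1 (19.8), so its difference from WT is not independent of the filter.

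The members did not all vary together from mouse to mouse. With the genotype means removed, Pearson correlations of log2 values over the 9 libraries were computed for the 45 pairs of members, and the exact 2-sided p came from all 216 arrangements of the libraries within genotypes, the smallest possible being 0.00463. Tsc22d3 and Sgk1 varied together most closely, with r 0.93 and Spearman's rho 0.93 (exact p 0.00463 for each, adjusted p 0.208), and r 0.82 without the 2 libraries farthest from the median of Tsc22d3. In each pair these 2 libraries were picked by the gene named first alone, and genotype means were not removed again. Fkbp5 and Zbtb16 had r 0.87 (exact p 0.0324) and rho 0.75 (exact p 0.0694), and r 0.51 without the 2 farthest libraries. Sgk1 and Cebpb had r 0.90 (exact p 0.0463) and rho 0.77 (exact p 0.0602), and r 0.66 without the 2 farthest libraries. The last of the 4 pairs with an exact p under 0.05 was Tsc22d3 and Zbtb16, both receptor targets, which varied in opposite directions, with r -0.34 (exact p 0.0463) and rho -0.47 (exact p 0.171), and r -0.41 without the 2 farthest libraries. None of the 45 pairs passed Benjamini-Hochberg adjustment, the smallest adjusted p being 0.208. A lone pair at the smallest possible p reaches only this value over 45 pairs. The adjustment therefore could not decide which pairs vary together.

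The genes whose levels over the 9 libraries were most like those of Fkbp5, among 9866 genes with a mean of at least 100, were Pgm5 (Pearson r 0.97), Cwc22 (0.96), Rai1 (0.95), Klhl18 (0.94) and Cfdp1 (0.92). Those most like Tsc22d3 were Akap12 (Pearson r 0.95), Ppp3r1 (0.94), Commd7 (0.93), Ptges3 (0.93) and Strbp (0.93). These are the highest of many correlations over few libraries and describe these libraries only. Ptges3, the co-chaperone p23 of the Hsp90 complex that holds the receptor, is also in the list of receptor machinery.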

How the data were processed

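Per the labels' protocols, RNA of the left TA muscle of 9 mice was primed with oligo(dT), copied to full-length cDNA with a SMARTer v4 kit and tagmented with Nextera XT. This kit does not mark strand. Per the submitters' processing notes the authors used HISAT2, featureCounts and DESeq2 on mm10. No version, setting or annotation is given in the sources used here. Their deposited values are a signal, reads over a size factor of the library: in every library they were multiples of a single step within 0.001, so whole reads could be recovered (36234428 to 48762188 per library). Such values are not corrected for transcript length, and they cannot show a change that most genes share.

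Genotype labels gave the groups, and titles gave the replicate numbers. All libraries carry batch label 1. The p-values measure the spread between these mice. The test was limma on log2(normalised count + 1) with a mean-variance trend, fitted to all 9 libraries with genotype as its factor, over the 15279 genes with a value of at least 10 in at least 3 libraries. A gene was called at a Benjamini-Hochberg adjusted p under 0.05 over all genes tested, within a comparison. With 3 mice against 3, an exact permutation test of a single gene cannot go below p 0.1, so none was used. Fold changes on this scale understate those of low genes. Exon lengths, positions and overlaps came from the GENCODE annotation of GRCm38, which may differ from the annotation behind the deposited table, and promoters from RefSeq (GRCm38.p6). Limits from counts cover counting error only.

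The members and gene lists were chosen with earlier results of these data known, so counts over them are descriptions. From each other list, up to 4 genes with the smallest p per comparison and any gene called were named, and so were the 5 genes most like Fkbp5 and Tsc22d3, leaving out predicted genes. Steps were tested on simulated data. The tools were Python 3.11.15 with matplotlib 3.10.9, and R 4.3.3 with DESeq2 1.42.0, edgeR 4.0.16 and limma 3.58.1.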

Additional observations from a re-analysis of the deposited data

How the results depend on the processing

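Over 597 recomputed member values (pseudocounts, filters, scalings, variance model, a fit of just those genotypes, the replicate block, edgeR, DESeq2 and each library left out), 558 kept their direction and their side of the threshold, 37 reversed and 2 crossed it. The last were Errfi1 (1.55) and Sgk1 (0.39) in Svil-Mut against WT by DESeq2, which called 2 members there, and 0 to 2 when each library was left out (chosen after seeing the data). Genes called in Svil-Mut against WT, 6 in all, were 19 with a pseudocount of 10, 16 with a mean of at least 50, 14 with only those genotypes, 176 by DESeq2, and 4 to 18 with each library left out (18 without Svil-Mut replicate 1, 17 without Svil-KO replicate 1). In Svil-KO against WT, DESeq2 called 4; in Svil-Mut against Svil-KO, 7 genes became 216 by DESeq2 and 4 to 13 with each library left out. Reversed values in Svil-Mut against WT were Cebpb -0.023 (replicate block) and Hif3a 0.42 (edgeR) and 0.43 (DESeq2). In Svil-KO against WT they were Hif3a 0.11 (pseudocount 10), 0.52 (edgeR) and 0.51 (DESeq2), and Tsc22d3 -0.013 (equal totals), -0.0097 (quantile), -0.00036 (edgeR) and -0.0053 (DESeq2). In Svil-Mut against Svil-KO they were Zbtb16 -0.00089 (equal totals), -0.0044 (quantile), -0.027 (edgeR) and -0.021 (DESeq2), Cebpb -0.12 (replicate block), and Cebpd 0.029 (edgeR) and 0.034 (DESeq2). With each library left out, values crossed 0 for Nr3c1 (-0.087 to 0.077) and Cebpd (-0.010 to 0.71) in Svil-Mut against WT, for Errfi1 (-0.14 to 0.46), Fkbp5 (-0.22 to 0.48), Hif3a (-1.08 to 1.03) and Tsc22d3 (-0.11 to 0.10) in Svil-KO against WT, and for Cebpb (-0.083 to 0.34), Cebpd (-0.48 to 0.23) and Zbtb16 (-0.20 to 0.20) in Svil-Mut against Svil-KO. The cause was not tested. In Svil-Mut against WT, Errfi1 stayed at 1.08 to 1.81 and Sgk1 at 0.30 to 0.48 under every setting run. Same-numbered libraries had deviations from their genotype means that correlated at r -0.06 to 0.04 between genotypes. Between Svil-KO and WT these r were 0.03 to 0.04, with -0.04 to -0.002 for differently numbered libraries. With Svil-Mut they were -0.06 to 0.007 and -0.04 to 0.06 in that order. Correlations this small cannot show whether the numbers pair mice. With the replicate block 7, 0 and 6 genes and 0 members were called in Svil-Mut against WT, Svil-KO against WT and Svil-Mut against Svil-KO. Hif3a was not tested with a mean of at least 50.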

Other observations

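The genes whose levels over the 9 libraries were most like those of Errfi1 and Sgk1 were looked up after the values had been seen. For Errfi1 they were Zfp36 (Pearson r 0.996), which encodes an RNA-binding protein that destabilises inflammatory mRNAs, Sik1 (0.98), a kinase induced by cyclic AMP, Btg2 (0.97), Junb (0.97) and Nr4a2 (0.96). With the genotype means removed these correlations were 0.99, 0.94, 0.93, 0.92 and 0.89 in the same order. Zfp36 had normalised counts of 1575, 2351 and 973 in Svil-Mut, 1005, 475 and 467 in Svil-KO, and 610, 483 and 549 in WT, the same order of libraries as Errfi1 within Svil-Mut and the same high Svil-KO library. For Sgk1 the named genes most alike were Irf2bpl (Pearson r 0.98), Cdkn1a (0.97), Gjc1 (0.96) and Tob2 (0.96). With the genotype means removed these were 0.94, 0.90, 0.92 and 0.88 in the same order. The genes named for Errfi1 and Sgk1 have the highest of 9866 correlations over 9 libraries and describe these libraries only.

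Of the 16 clock genes, which glucocorticoids can reset, 15 were tested and none was called. Against WT, 5 in Svil-Mut were higher and 0 lower at an unadjusted limma p under 0.05, beside 10% of all genes tested. Bhlhe40, a repressor of clock genes, was 8587 ± 971 in Svil-Mut and 4815 ± 855 in WT, Arntl, the core activator, was 886 ± 181 in Svil-Mut and 493 ± 108 in WT, and Nr1d1, which represses Arntl, was 3897 ± 789 in Svil-Mut and 2604 ± 111 in WT (SD, n = 3 each). Their limma adjusted p were 0.228, 0.266 and 0.330. In Svil-KO, 1 was higher than in WT and 0 lower at an unadjusted p under 0.05, beside 4.11% of all genes tested. The labels give no time of collection, and its part in these values was not tested.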
